A study of Homo sapiens with 8 samples.

Results

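The genes described here act on the stability of microtubules and comprise CAMSAP1, CAMSAP2 and CAMSAP3, TPPP and TPPP3, STMN1, MAP4, MAP7, CLASP1 and CLASP2. They were taken as the probe sets whose single annotated gene symbol was one of these names, which gave 11 probe sets of 10 genes among 19158 single-symbol probe sets of 18404 genes. STMN1 had 2 probe sets and each of the other genes had 1. CAMSAP2 was chosen by its measured difference with siRNA 9 and TPPP by its measured difference with both reagents, so those values are a description and carry no test. The other 8 genes were placed beside them for what their proteins do, with earlier results of these data known.

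Microtubules are hollow polymers of alpha- and beta-tubulin that grow and shrink mainly at their plus ends. CAMSAP proteins bind and stabilise free minus ends that are not anchored at the centrosome, an arrangement common in epithelial cells. TPPP proteins bundle microtubules and promote tubulin polymerisation, stathmin (STMN1) sequesters tubulin dimers and favours depolymerisation, MAP4 and MAP7 bind along the microtubule lattice, and CLASP proteins promote rescue and pausing at plus ends.

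The study lowered TRIM44, a tripartite motif protein, in HSC39, an established human line of gastric carcinoma of the signet ring type, and measured RNA on 8 whole-transcript arrays. The groups were TRIM44-SiRNA(7) with 2 arrays, TRIM44-SiRNA(9) with 2 arrays and All stars negative SiRNA, a non-targeting control, with 4 arrays, here called siRNA 7, siRNA 9 and negative siRNA. All cells were HSC39 grown in RPMI medium with fetal calf serum, and the labels give 100 nM (written nm) of TRIM44 siRNA for 48 h. The protocol text is the same for all 8 samples and names no other siRNA, whereas the series text calls the control cells untreated. The series counts the arrays of a condition as 4 biological replicates, but nothing else says that they came from separate cultures, so the p-values reflect only how far these samples scatter, which may be technical variation.

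TRIM44 itself stood at log2 levels of 10.85 and 11.27 with siRNA 7 and 11.10 and 11.14 with siRNA 9, against 11.91, 12.02, 11.91 and 11.77 with negative siRNA, so no TRIM44 siRNA array overlapped a negative array. Array medians over all probe sets lay between 6.78 and 6.87, and precision is limited by how few arrays there are. Scores on the first principal component were 15.5 and 17.2 for siRNA 9 and 13.6 for negative array 2, and from -11.8 to -5.57 for the other 5. The mean level of 5 measured epithelial markers of 6 listed (EPCAM, CDH1, KRT8, KRT18 and KRT19) was 12.20 to 12.25 on siRNA 7 arrays, 12.12 to 12.19 on siRNA 9 arrays and 12.22 to 12.34 on negative arrays. The mean of 6 fibroblast markers was 6.78 to 7.01 with siRNA 7, 6.87 to 6.89 with siRNA 9 and 6.83 to 6.95 with negative siRNA. The mean of 7 leukocyte and endothelial markers was 6.51 to 6.55 with siRNA 7, 6.61 to 6.65 with siRNA 9 and 6.46 to 6.74 with negative siRNA. These last 2 lists mix bright and dim probe sets, so their means are read between arrays only. By mean signal LUM ranked at percentile 84.2 and DCN at 3.6, LYZ at 97.6 and PTPRC at 2.5. No measured marker of any list passed the threshold in any comparison, and the markers' part in the results was not tested. In bulk RNA, fewer cells that express a gene and less RNA per cell cannot be told apart.

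All levels are log2 expression values of 1 probe set, so levels are compared between arrays and never between genes. Differences are on the same log2 scale, with the standard error (SE) or the 95% interval of a limma fit over all 19158 probe sets, and a gene passed where the Benjamini-Hochberg adjusted p of that fit was under 0.05. The comparisons of siRNA 7 and of siRNA 9 with negative siRNA share the same 4 negative arrays.

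Among the minus-end binding genes, CAMSAP2 stood high on both siRNA 9 arrays. For CAMSAP1 and CAMSAP3 the arrays of each reagent overlapped the negative arrays. CAMSAP2 had 7.89 and 8.30 with siRNA 7, 9.17 and 9.12 with siRNA 9, and 7.76, 8.52, 7.97 and 8.05 with negative siRNA. Both siRNA 9 arrays lay above all 6 other arrays, while the siRNA 7 arrays lay within the range of the negative arrays. The siRNA 9 level was 2.09-fold that with negative siRNA, a log2 difference of 1.07 (SE 0.18, 95% interval 0.68 to 1.46). This is the value that brought the gene into the set.

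With siRNA 7 the CAMSAP2 difference was 0.02, with an interval of -0.37 to 0.41. The reagents stood 1.04 apart, again given without a test because the siRNA 9 arrays chose the gene. Averaged over both reagents the CAMSAP2 difference was 0.54 (interval -0.01 to 1.10), and it was 0.36 without siRNA 9 array 1, 0.38 without siRNA 9 array 2 and 0.79 without siRNA 7 array 1.

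CAMSAP2 was also the member that varied most among control arrays. Its range over the negative arrays was 0.76, wider than in 98.2% of probe sets, whereas the ranges of the other 10 member probe sets were 0.03 to 0.37, beside a median of 0.29 over all probe sets. The high negative array was array 2, which stood 0.59 above the mean of the other 3 and scored close to the siRNA 9 arrays on the first principal component. Without negative array 2 the siRNA 9 difference was 1.21 and the siRNA 7 difference 0.17. The part of whatever sets negative array 2 apart in the CAMSAP2 level was not tested.

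CAMSAP1, which binds minus ends without remaining along the lattice, had 9.53 and 9.70 with siRNA 7, 9.50 and 9.45 with siRNA 9, and 9.54, 9.61, 9.60 and 9.42 with negative siRNA. Its siRNA arrays overlapped the negative arrays, with differences of 0.07 (interval -0.14 to 0.28) for siRNA 7 and -0.07 (interval -0.28 to 0.14) for siRNA 9. CAMSAP3, the paralog that holds minus ends near the apical side of epithelial cells, had 9.88 and 9.99 with siRNA 7, 10.16 and 9.98 with siRNA 9, and 9.91, 9.84, 9.82 and 10.08 with negative siRNA. Its groups overlapped too, with differences of 0.02 (interval -0.21 to 0.25) for siRNA 7 and 0.16 (interval -0.07 to 0.39) for siRNA 9.

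**Figure D1:**
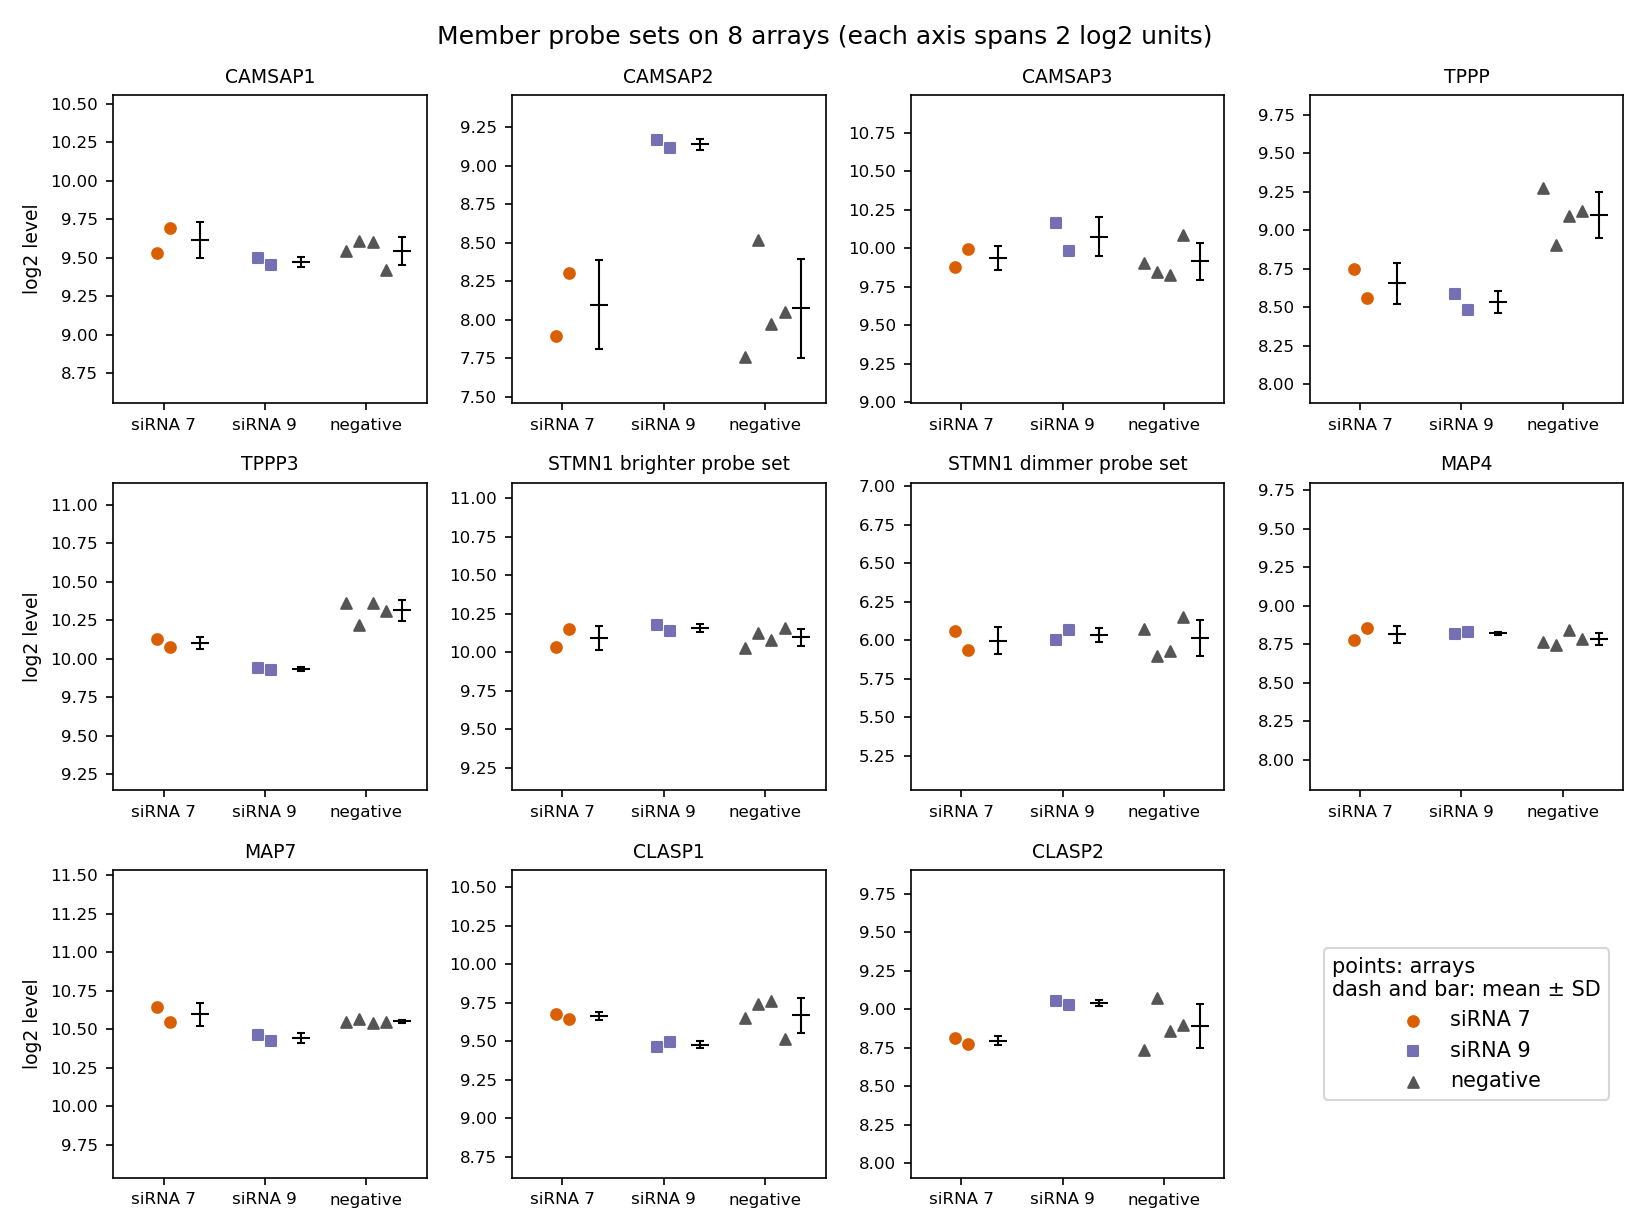
Log2 level of each member probe set on the 8 arrays, by group (siRNA 7, siRNA 9, negative), with each vertical axis spanning the same number of log2 units. Points are arrays and the dash with bar is the group mean ± SD; CAMSAP2 is high on the siRNA 9 arrays (9.17 and 9.12), and TPPP and TPPP3 lie lower on all TRIM44 siRNA arrays than on any negative array.

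Both measured genes of the tubulin polymerisation promoting family, TPPP and TPPP3, had lower levels with either reagent. TPPP was chosen for this and TPPP3 did not pass, and the third gene, TPPP2, was not analysed here. TPPP had 8.75 and 8.56 with siRNA 7, 8.58 and 8.48 with siRNA 9, and 9.27, 8.91, 9.10 and 9.13 with negative siRNA. All 4 TRIM44 siRNA arrays lay below all 4 negative arrays. The level over both reagents was 70.4% of that with negative siRNA (95% interval 61.1% to 81.2%), a log2 difference of -0.51, which is the value that brought the gene into the set.

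By reagent the TPPP difference was -0.45 (interval -0.69 to -0.20) with siRNA 7 and -0.57 (interval -0.81 to -0.32) with siRNA 9. The siRNA 9 level minus the siRNA 7 level was -0.12 with an interval of -0.40 to 0.16 and did not pass. Choosing TPPP by both reagents favours a gene in which they agree, so nothing is read from this. On leaving out each array in turn the difference over both reagents stayed between -0.57 and -0.45.

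TPPP3, the paralog that lacks the long N-terminal extension of TPPP and also bundles microtubules, had 10.13 and 10.07 with siRNA 7, 9.94 and 9.92 with siRNA 9, and 10.36, 10.22, 10.36 and 10.31 with negative siRNA. Here too all 4 TRIM44 siRNA arrays lay below all 4 negative arrays, and the siRNA 9 arrays lay below the siRNA 7 arrays. TPPP3 was not chosen for its values and did not pass. Its difference was -0.30 over both reagents (SE 0.08, limma adjusted p = 0.788), -0.21 with siRNA 7 (SE 0.09, adjusted p = 0.601) and -0.38 with siRNA 9 (SE 0.09, adjusted p = 0.0714), so its siRNA 9 level was 76.8% of that with negative siRNA (interval 67.2% to 87.7%). Without negative array 2 the siRNA 9 difference was -0.41 and passed (adjusted p = 0.0168), and over all alternatives its adjusted p ran from 0.00361 to 0.496.

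Of the 11 member probe sets, those of TPPP and TPPP3 were the 2 that did not overlap between TRIM44 siRNA and negative arrays, both lower. Over all probe sets 2.86% did not overlap in this comparison, 1.26% as lower, and since TPPP was picked for such a value nothing is read from the count.

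The RefSeq promoter table (build GRCh38.p14) held entries for 8 of the 10 genes, not for CAMSAP2 or TPPP3. The 250 bases before the TPPP start that this table uses are shown because TPPP was chosen by its lower level with both reagents and has an entry. They lie at chr5:693353-693602 on the minus strand, inside the annotated gene span, which runs on to position 700727 at its 5′ end, so this start is not the outermost one. They are written 5′ to 3′, with each match to the GC box GGGCGG in capitals.
TPPP: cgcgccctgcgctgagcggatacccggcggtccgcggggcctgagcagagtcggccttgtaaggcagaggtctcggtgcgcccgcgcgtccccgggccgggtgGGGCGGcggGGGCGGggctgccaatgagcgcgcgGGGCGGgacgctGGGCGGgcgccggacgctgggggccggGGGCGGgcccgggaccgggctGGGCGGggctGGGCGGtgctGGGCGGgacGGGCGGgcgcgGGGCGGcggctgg
The stretch held 10 GC boxes, all on the strand shown, and its G and C content was 84.0%, against a median of 58.0% over 35116 such windows. At least 1 GC box on either strand was found in 42.6% of those windows, and 53 of them held as many as TPPP or more. It also held 1 CCAAT box, present in 32.0% of windows, and no TATAAA or CACGTG on either strand, which 10.7% and 6.3% of windows held. These matches describe the letters of the window and say nothing of factors bound there.

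None of the remaining members passed in any comparison. Both STMN1 probe sets overlapped between groups. The brighter one had 10.03 and 10.15 with siRNA 7, 10.18 and 10.14 with siRNA 9, and 10.03, 10.12, 10.08 and 10.16 with negative siRNA. Its difference was -0.01 (interval -0.20 to 0.19) with siRNA 7 and 0.06 (interval -0.13 to 0.25) with siRNA 9, and the dimmer probe set had -0.02 with siRNA 7 and 0.02 with siRNA 9.

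MAP4 had 8.77 and 8.85 with siRNA 7, 8.81 and 8.83 with siRNA 9, and 8.76, 8.75, 8.84 and 8.78 with negative siRNA. Its whole range over the 8 arrays was 0.10, narrower than in nearly all probe sets, whose median range was 0.39. The differences were 0.03 (interval -0.16 to 0.21) with siRNA 7 and 0.04 (interval -0.15 to 0.22) with siRNA 9.

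MAP7, which recruits and activates kinesin-1, had 10.65 and 10.55 with siRNA 7, 10.47 and 10.42 with siRNA 9, and 10.55, 10.57, 10.54 and 10.55 with negative siRNA. The negative arrays lay within 0.03 of each other and both siRNA 9 arrays lay below them, but the difference was only -0.11 (interval -0.29 to 0.08), and it was 0.05 with siRNA 7 (interval -0.14 to 0.23). The siRNA 7 value was -0.00 without siRNA 7 array 1 and 0.10 without siRNA 7 array 2.

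The CLASP genes leaned in opposite directions with siRNA 9. CLASP1 had 9.68 and 9.64 with siRNA 7, 9.46 and 9.50 with siRNA 9, and 9.65, 9.74, 9.76 and 9.52 with negative siRNA, so both siRNA 9 arrays lay just below the lowest negative array. Its difference was -0.19 (interval -0.40 to 0.02) with siRNA 9 and -0.01 (interval -0.22 to 0.20) with siRNA 7. CLASP2 had 8.82 and 8.78 with siRNA 7, 9.05 and 9.03 with siRNA 9, and 8.73, 9.08, 8.86 and 8.90 with negative siRNA. Its siRNA 9 arrays lay above the siRNA 7 arrays and inside the negative range, whose top was again array 2. The CLASP2 differences were 0.15 (interval -0.08 to 0.38) with siRNA 9 and -0.09 (interval -0.32 to 0.13) with siRNA 7.

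**Figure D2:**
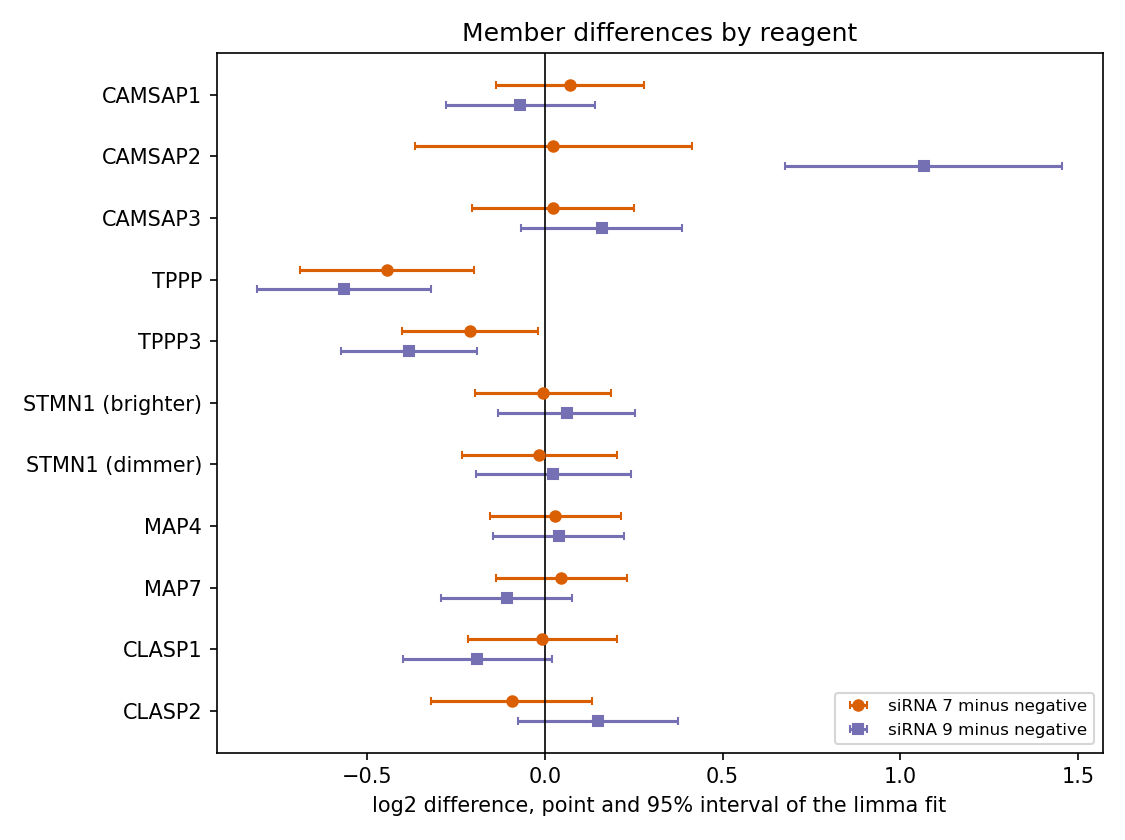
Log2 difference of each member probe set from negative siRNA, for siRNA 7 (circles) and siRNA 9 (squares), with bars for the 95% interval of the limma fit. CAMSAP2 was picked for its siRNA 9 value (interval 0.68 to 1.46) and TPPP for its values with both reagents. Those intervals are a description and carry no test. The CAMSAP2 interval spans 0 for siRNA 7, and the TPPP and TPPP3 points lie below 0 for both reagents.

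Counted over the set, limma called 0 of 11 member probe sets for TRIM44 siRNA against negative siRNA, where it called 0.00522% of all probe sets, and 2 members had an unadjusted p under 0.05, as did 5.43% of all. For siRNA 7 it called 0 of 11, beside 0.0679% of all, with 2 members and 7.46% of all probe sets at an unadjusted p under 0.05. For siRNA 9 it called 2 of 11, CAMSAP2 as higher and TPPP as lower, where it called 0.924% of all probe sets, 0.334% as higher and 0.590% as lower, and 13.6% had an unadjusted p under 0.05. Both were picked for their values, so nothing is read from that count. By unadjusted limma p, the 2 members counted for TRIM44 siRNA and for siRNA 7 were TPPP and TPPP3 each time. TPPP was picked for its values with both reagents, so nothing is read from those counts beside the shares of all probe sets either. The 8 genes that were not picked gave 0 calls for siRNA 9, with TPPP3 alone at an unadjusted p under 0.05.

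Between reagents, siRNA 9 against siRNA 7, limma called 1 member, CAMSAP2, as higher, but its siRNA 9 arrays chose it. Nothing is read from that call. Of all probe sets, 2.23% were called, 1.41% as higher and 0.820% as lower, and 15.7% had an unadjusted p under 0.05. For siRNA 9 the arrays of 5 member probe sets (CAMSAP2 above; TPPP, TPPP3, MAP7 and CLASP1 below) did not overlap the negative arrays, where 22.7% of all probe sets did not, 13.4% above and 9.23% below. For siRNA 7 there were 2, TPPP and TPPP3, both below, where 14.4% of all did not overlap and 7.99% lay below. CAMSAP2 was picked for its siRNA 9 values and TPPP for those of both reagents, so nothing is read from either overlap count. The 8 genes that were not picked had a median difference of 0.01 with siRNA 7 and -0.02 with siRNA 9. Over all probe sets the medians were -0.00 and 0.02. Of these 8 genes, 4 lay above 0 with each reagent. The share of all probe sets above 0 is not given here, so nothing is read from that sign count. The siRNA 9 count of 2 became 1, CAMSAP2, without negative array 1 or 4, and 0 without negative array 3 or either siRNA 9 array.

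The genes nearest CAMSAP2 and TPPP were found by the root mean squared difference, over the 8 arrays, between log2 deviations from each gene's own mean, among 18403 other genes. Nearest CAMSAP2 were MYBL1, a transcription factor of the MYB family, at 0.13, the guanine deaminase gene GDA at 0.15, the lipid droplet gene HILPDA at 0.15 and TMEM45A at 0.16, beside a spread of CAMSAP2 about its own mean of 0.51. HILPDA, for example, had 9.10 and 9.33 with siRNA 7, 10.10 and 9.98 with siRNA 9, and 8.98, 9.72, 9.24 and 9.36 with negative siRNA. In each of these 4 genes, as in CAMSAP2, the siRNA 9 arrays were highest and negative array 2 was the highest negative array. Their siRNA 9 differences were 0.96 for MYBL1, 0.94 for GDA, 0.72 for HILPDA and 0.93 for TMEM45A, a likeness that the choice itself fixed.

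Nearest TPPP were GM2A, the ganglioside activator, at 0.10, the methyltransferase gene TMT1A at 0.10, the kinase gene CDK18 at 0.10 and BLTP3A, of a bridge-like lipid transfer protein, at 0.11, beside a spread of TPPP about its own mean of 0.28. GM2A had 8.35 and 8.25 with siRNA 7, 8.27 and 8.24 with siRNA 9, and 8.71, 8.56, 8.80 and 8.88 with negative siRNA. Differences over both reagents were -0.46 for GM2A, -0.37 for TMT1A, -0.32 for CDK18 and -0.49 for BLTP3A, again a likeness that the choice itself fixed.

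**Figure D3:**
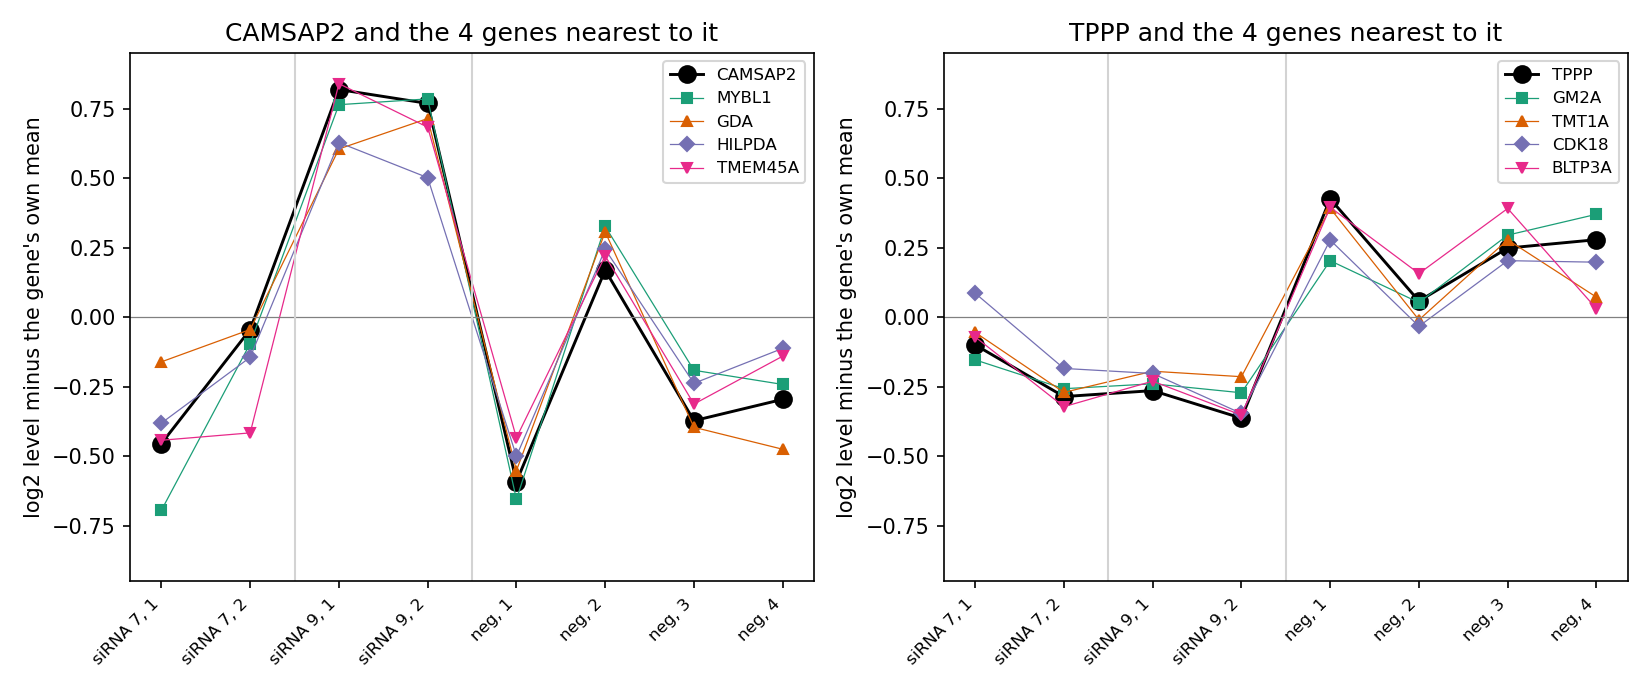
Log2 level minus the gene's own mean over the arrays for CAMSAP2 (left) and TPPP (right) with the 4 genes nearest to each, on the siRNA 7, siRNA 9 and negative (neg) arrays. Lines only join the values of a gene; the CAMSAP2 group peaks on the siRNA 9 arrays with a smaller peak on negative array 2, and the TPPP group sits lower on most TRIM44 siRNA arrays than on the negative arrays.

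The wider microtubule machinery was described with 7 lists of 158 genes, of which 147 were measured by 152 probe sets. For TRIM44 siRNA limma called 0 of these probe sets, with 15 (9.87%) at an unadjusted p under 0.05, beside 5.43% of all probe sets. For siRNA 7 it called 0, with 16 (10.5%) under 0.05, beside 7.46% of all. For siRNA 9 it called 1, MAPRE1, where it called 0.924% of all probe sets, with 27 (17.8%) under 0.05, beside 13.6% of all. Between reagents it called 4, where it called 2.23% of all, with 21 (13.8%) under 0.05, beside 15.7% of all. The counts of calls are thus near or below the share over all probe sets. The list medians lay between -0.05 and 0.03 for TRIM44 siRNA, -0.08 and 0.05 for siRNA 7, and -0.07 and 0.07 for siRNA 9, beside 0.01, -0.00 and 0.02 over all probe sets.

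Of the 23 plus-end genes, MAPRE1 was called for siRNA 9 and between reagents, and SLAIN1 only between reagents. MAPRE1 encodes EB1, which binds growing plus ends and recruits most other plus-end proteins. It had 11.52 and 11.61 with siRNA 7, 10.82 and 10.95 with siRNA 9, and 11.27, 11.58, 11.65 and 11.43 with negative siRNA. MAPRE1 fell by 0.60 with siRNA 9 (SE 0.12, limma adjusted p = 0.0357), both arrays lying below all others, and had 0.08 with siRNA 7. The siRNA 9 minus siRNA 7 difference was -0.68 (adjusted p = 0.0256). The siRNA 9 call against negative siRNA ended without negative array 3 or 4 (adjusted p = 0.116 and 0.0556) and without siRNA 9 array 1 or 2 (0.460 and 0.270), at differences of -0.67 to -0.53.

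SLAIN1, a partner of EB1 that promotes plus-end growth, differed between reagents in the other direction. It had 9.57 and 9.82 with siRNA 7, 10.51 and 10.59 with siRNA 9, and 10.20, 10.53, 10.28 and 10.42 with negative siRNA. The siRNA 7 arrays were the low ones, and siRNA 9 minus siRNA 7 was 0.86 (SE 0.13, adjusted p = 0.0120). Against negative siRNA, SLAIN1 had -0.66 with siRNA 7 (SE 0.11, adjusted p = 0.0779) and 0.19 with siRNA 9. The other 21 plus-end genes were not called between reagents, and NAV2 had 0.31 with siRNA 9.

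Among the 16 measured severing and depolymerising genes, KIF2C, a kinesin that depolymerises microtubule ends in mitosis, was lower with siRNA 9 than with siRNA 7. It had 9.20 and 9.29 with siRNA 7, 8.77 and 8.72 with siRNA 9, and 9.11, 9.09, 9.16 and 8.93 with negative siRNA, and siRNA 9 minus siRNA 7 was -0.50 (SE 0.11, adjusted p = 0.0394). Its relative KIF2A had -0.28 with siRNA 9, and KIF24 had 0.27 with siRNA 7, but 0.45 without siRNA 7 array 1 and 0.08 without siRNA 7 array 2. Among 30 tubulin modification and folding genes, TTLL7, which adds glutamate chains to beta-tubulin, was higher with siRNA 9 than with siRNA 7. It had 7.07 and 7.10 with siRNA 7, 7.67 and 7.59 with siRNA 9, and 7.03, 7.06, 7.15 and 7.35 with negative siRNA, a reagent difference of 0.54 (SE 0.12, adjusted p = 0.0422). SVBP, the partner of the vasohibin enzymes that remove the last tyrosine of tubulin, had -0.48 with siRNA 9, and the deglutamylase gene AGBL5 had -0.28 with siRNA 7.

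The calls between reagents rested on few arrays. The MAPRE1, KIF2C and TTLL7 calls ended without any 1 of the 4 TRIM44 siRNA arrays, with adjusted p of 0.0737 to 0.256 for MAPRE1, 0.0986 to 0.256 for KIF2C and 0.145 to 0.303 for TTLL7. The KIF2C and TTLL7 calls also ended without negative array 1 (0.0591 and 0.0516) or 3 (0.0734 and 0.0783). The SLAIN1 call ended without siRNA 7 array 1 (0.0568) or siRNA 9 array 1 or 2 (0.147 and 0.133) and held without siRNA 7 array 2.

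The other 4 lists had 0 genes called in every comparison. Of the 20 measured tubulin genes, 15 lay below 0 with siRNA 9 and 12 with siRNA 7, within -0.40 to 0.11 and -0.35 to 0.08. Their medians were -0.06 with siRNA 9 and -0.02 with siRNA 7, beside 0.02 and -0.00 over all probe sets. The share of all probe sets on each side of 0 is not given here, so nothing is read from the sign counts of these 4 lists. The beta-tubulin gene TUBB4A had -0.32 with siRNA 7, or -0.17 without siRNA 7 array 1, and -0.40 with siRNA 9, and the gamma-tubulin gene TUBG2, which a probe set may not separate from its close copy TUBG1, had -0.22 with siRNA 7 and -0.35 with siRNA 9. Tubulin genes are close paralogs in general, so their probe sets may share signal and may not count independently. Of 23 nucleation and minus-end genes, 13 lay above 0 with siRNA 9. NIN, whose protein anchors minus ends at the centrosome, had 0.49 with siRNA 9, TUBGCP5, of the gamma-tubulin ring complex, had -0.30 with siRNA 9, and KANSL1 had -0.18 with siRNA 7, or -0.09 without siRNA 7 array 2.

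Of 9 measured genes whose proteins work with CAMSAPs, 5 lay above 0 with siRNA 9. AKAP9, which anchors CAMSAP2-bound minus ends at the Golgi, had 8.27 and 8.37 with siRNA 7, 8.42 and 8.55 with siRNA 9, and 7.95, 8.61, 8.22 and 7.82 with negative siRNA. The AKAP9 arrays of each reagent overlapped the negative arrays, and its highest value was on negative array 2. Its differences were 0.17 for siRNA 7 and 0.34 for siRNA 9. The siRNA 7 value was 0.32 without negative array 2, 0.10 without negative array 1 and 0.06 without negative array 4. MACF1, which links microtubules to actin, had 0.37 with siRNA 9, and WDR47 had 0.30 with siRNA 7, or 0.15 without siRNA 7 array 2. Among 26 lattice binding genes, 16 lay above 0 with each reagent. MAPT, or tau, had -0.28 with siRNA 9, or -0.18 without siRNA 9 array 2, and MAP7D3 had -0.22 with siRNA 7. EML6 had 0.37 with siRNA 9, and 0.60 without siRNA 9 array 1 and 0.14 without siRNA 9 array 2.

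**Figure D4:**
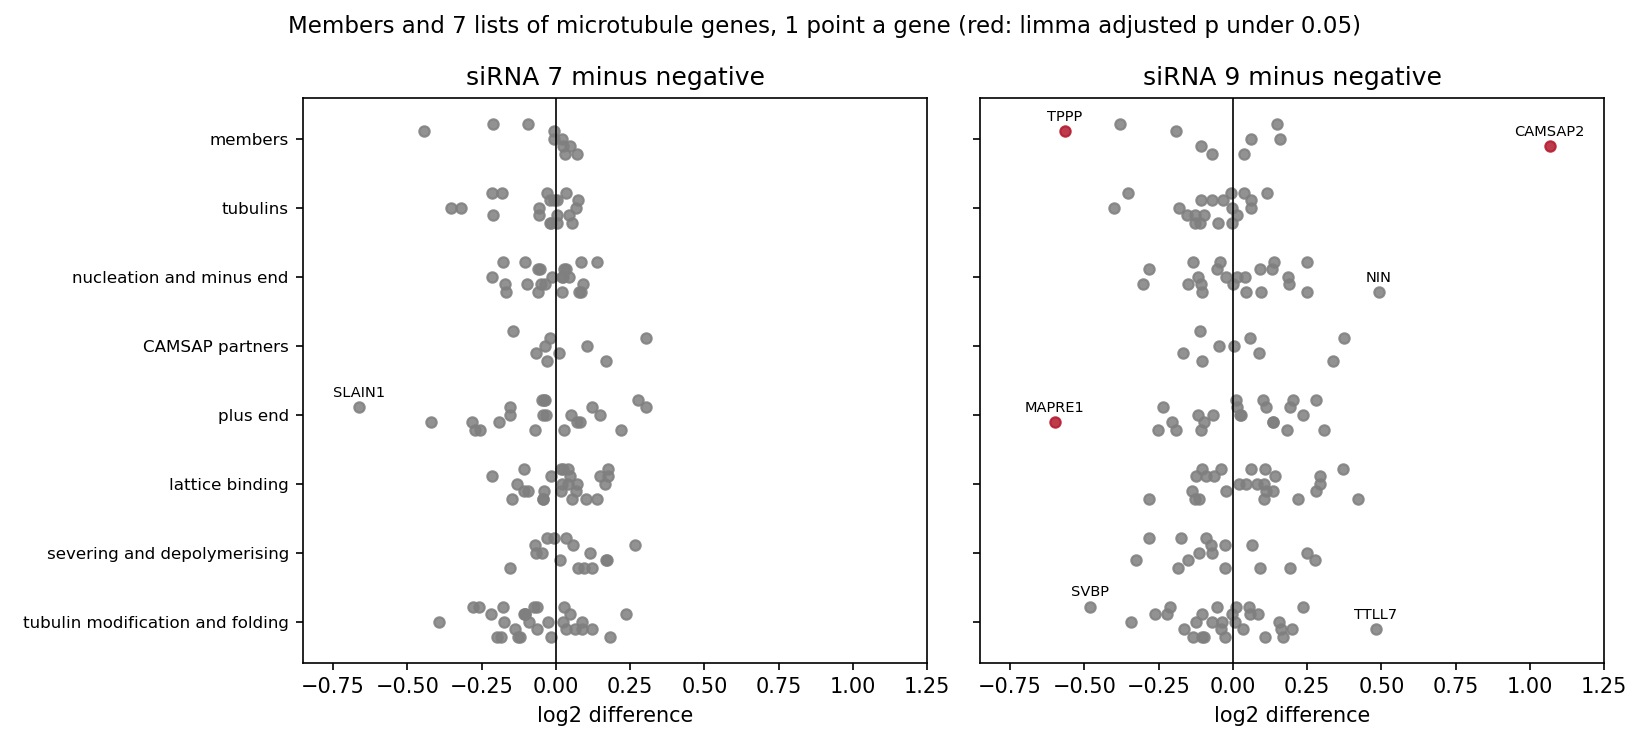
Log2 difference from negative siRNA for siRNA 7 (left) and siRNA 9 (right), 1 point a gene, for the members and the 7 lists of microtubule genes, with genes past a limma adjusted p of 0.05 in red. For siRNA 9 the red points are CAMSAP2 and TPPP, picked for their values, and MAPRE1 at -0.60; there are none for siRNA 7.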

How the data were processed

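The authors deposited 1 log2 expression level per probe set and array, 32321 in all, with limma named per the submitters' processing notes; the sources used here give no background correction, normalization, genome build or signal over background. At any rank, the sorted deposited log2 values of the 8 arrays spanned 0.18 or less. Symbols came from the platform annotation, checked by gene ID in RefSeq GRCh38.p14 (19128 found, 0 changed); 1388 probe sets with several symbols and 11775 with none were left out, and no filter on level was used.

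Groups followed the sample titles. TRIM44 siRNA was set against negative siRNA in a fit of 2 group means, and single reagents in a fit of 3 group means over all 8 arrays (limma lmFit and eBayes, two-sided, Benjamini-Hochberg over 19158 probe sets). Members, lists, tests and the naming rule were chosen with earlier results of these data known. The rule named TRIM44, all members, per list the 2 genes of smallest unadjusted p for siRNA 9 and the 1 for siRNA 7, any list gene called, and the 4 genes nearest CAMSAP2 and TPPP; list genes stand by their brightest probe set. Tried as alternatives were array weights, a trended robust prior, median centring, quantile normalization, all probe sets, the upper 50% by mean, other sample sets, a block for the replicate number, and leaving out each array. For TRIM44, list genes and nearest genes they were chosen after seeing the data. The fits against negative siRNA were also run on simulated data with independent noise and the same shift for both reagents. That simulation held no differences shared across an array and no change particular to a reagent. It did not score the comparison between reagents, and nothing here rests on it. Fits ran in R 4.3.3 with limma 3.58.1 and statmod 1.5.0, and plots in matplotlib 3.10.9.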

Additional observations from a re-analysis of the deposited data

Results flagged for a closer look

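The effects of siRNA 7 and siRNA 9 differed from each other for several of the genes described, by a limma adjusted p under 0.05 for the siRNA 9 minus siRNA 7 difference, which 2.23% of all probe sets passed. Among the members this held for CAMSAP2 at 1.04, but its siRNA 9 arrays chose it, so that value carries no test. Among the other microtubule genes it held for SLAIN1 at 0.86, TTLL7 at 0.54, MAPRE1 at -0.68 and KIF2C at -0.50. Among the genes picked for their likeness to CAMSAP2 it held for MYBL1 at 1.17, TMEM45A at 1.19 and HILPDA at 0.83, a difference that their choice already fixed. No array stood apart by Dixon's criterion within the TRIM44 siRNA or negative siRNA arrays for the genes named. With 4 arrays a condition this criterion flags only extreme gaps, and the TRIM44 siRNA arrays mix both reagents, so nothing is read from it. Negative array 2 scored 13.6 on the first principal component, close to the siRNA 9 arrays.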

How the results depend on the processing

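For TRIM44 siRNA the count of member probe sets called was 0 in 16 settings, with 2 to 3 at an unadjusted p under 0.05 in limma, and 1, TPPP, with array weights. For siRNA 9 the member count of 2 was 0 with all probe sets and 0 with the replicate number as a block, and 0 to 3 with each array left out. Between reagents the member count of 1 was 0 with all probe sets, and 0 to 1 with each array left out. For the other microtubule genes the siRNA 7 count of 0 was 1, SLAIN1, with quantile normalization, the upper 50% by mean, the trended robust prior and array weights. The siRNA 9 count of 1 was 2 with quantile normalization, 2 with the upper 50% by mean, 3 with the trended robust prior, 20 with array weights, 0 with all probe sets, 0 with the replicate block, 0 to 10 with each array left out, and 10 without negative array 2. Between reagents their count of 4 was 7 with the trended robust prior, 0 with all probe sets, 0 to 9 with each array left out, and 9 without negative array 2. Where these counts were 0, 1 to 34 of the probe sets counted had an unadjusted p under 0.05. Testing all probe sets adjusts over more of them; the cause of the other changes was not tested.

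Deviations of same-numbered arrays of different groups correlated at 0.024 to 0.306, all above 0. Those of differently numbered arrays correlated at -0.306 to 0.162. With 2 arrays in a reagent's group the deviations mirror each other, so these values are not independent. The main fits did not take the number as a pairing, and a shared effect of the number was not tested. Under the replicate block the CAMSAP2 value for both reagents was 0.48. Over all 16 alternatives its siRNA 9 difference was 0.96 to 1.21, the TPPP difference for both reagents -0.57 to -0.45, and the TPPP3 difference with siRNA 9 -0.41 to -0.36. TPPP3 passed with the upper 50% by mean, the trended robust prior, array weights and without negative array 2. With 1 array left in a reagent's group, that array is assumed to vary like the others.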
